A study of Mus musculus with 8 samples.

Results

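The adenines called as N6-methyladenine (N6mA) in short DNA of Alkbh1 knockout cells were compared with those called in long DNA of the same cells. The members were all lines of the list for the short part (S) and all lines of the list for the long part (L), with no selection on their values. S held 3370 called adenines and L held 3044, so that 6414 of the 17418 adenines listed in the whole series were described. The wild-type lists did not enter.

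The series combined native chromatin immunoprecipitation of the histone variant H2A.X with single-molecule real-time (SMRT) sequencing. The cells of both groups were mouse embryonic stem cells of a C57BL6 x CBA background with a KO of Alkbh1, at passage 5 to 10, grown without feeder cells and without treatment. Both groups were pulled down with the same customized H2A.X antibody and, per the labels, differed only in the part of the DNA sequenced, S or L. The labels name 2 replicates of each group but tie both to the same list, so each group entered as 1 pooled list. No difference between S and L therefore has a replicate check, and no test across samples was possible. The size ranges of S and L, the knockout construct and the number of clones are not stated in the labels. The lists hold called bases and not reads, so they do not check the knockout itself. Neither list had a site in Alkbh1 (chr12:87428077-87443839), and the depth at bases without a call is unknown.

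N6mA is adenine with a methyl group on its exocyclic nitrogen, a mark that is common in bacteria and whose level in mammals is debated. ALKBH1 is a dioxygenase of the AlkB family that has been described as an eraser of this mark. H2A.X is a histone variant best known for its phosphorylation around DNA breaks. In SMRT sequencing a polymerase is watched as it copies a single molecule, and a modified base is called from a longer pause, the inter-pulse duration (IPD), than a model predicts for the unmodified sequence. Each pass of the polymerase over a base adds to its coverage.

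The contexts deposited with the calls show what the members look like. Each is printed 5′ to 3′ on the strand of the call, on mm10, with the called adenine in capitals. The first 3 are bases that were called in both lists, the first 2 of them in satellite-like contexts, and the last in a context that is not satellite-like, in Chl1, a gene of a neural cell adhesion protein. The last 2 show the trinucleotides CAG and GAA, whose shares differed between the lists, and were chosen after their values were seen.
Called in both lists, chr14:19417706-19417746, minus strand: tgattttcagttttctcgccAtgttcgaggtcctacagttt
Called in both lists, in Gm33838, chr9:35305272-35305312, plus strand: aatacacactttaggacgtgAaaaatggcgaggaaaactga
Called in both lists, in Chl1, chr6:103649274-103649314, plus strand: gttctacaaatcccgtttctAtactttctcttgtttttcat
CAG, called in S, in Lrrc2, chr9:110964389-110964429, minus strand: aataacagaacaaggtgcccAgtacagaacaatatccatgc
GAA, called in L, outside genes, chr7:37801595-37801635, plus strand: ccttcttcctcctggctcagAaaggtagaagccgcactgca

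Overlapping contexts were joined to show clusters of calls, which the results on spacing turn on. These are written on the plus strand of mm10, with a capital A at a call on the plus strand and a capital T opposite a call on the minus strand. Each is among the tightest clusters of its list, and none had a call of the other list within 1 kb. Outside genes, here and above, means only that the RefSeq gene set used had no gene there. It does not mean that the sequence is unique or not transcribed.
S, outside genes, 6 calls, chr17:39843305-39843424: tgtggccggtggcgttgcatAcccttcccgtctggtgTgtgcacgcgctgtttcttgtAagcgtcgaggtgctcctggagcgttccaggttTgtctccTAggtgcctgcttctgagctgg
S, in Crim1, 4 calls, chr17:78326639-78326747: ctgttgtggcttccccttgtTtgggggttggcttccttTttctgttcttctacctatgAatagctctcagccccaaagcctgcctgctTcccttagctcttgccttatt
L, in Mtcl1, 5 calls, chr17:66349655-66349710: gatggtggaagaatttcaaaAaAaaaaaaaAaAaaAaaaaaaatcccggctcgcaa
L, outside genes, 5 calls, chr4:22355802-22355875: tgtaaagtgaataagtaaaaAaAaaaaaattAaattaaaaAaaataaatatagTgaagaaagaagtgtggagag
L, outside genes, 4 calls, chr7:37801593-37801637: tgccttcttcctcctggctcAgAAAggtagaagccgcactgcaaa
The Mtcl1 cluster lies in 1 long run of adenines and the chr4 cluster in adenine-rich sequence, while the chr17 cluster of S outside genes is mixed in base composition. The chr7 cluster, chosen after its values were seen, holds the call with the highest IPD ratio of the clusters printed, 12.07.

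Both parts of the DNA gave sites over the whole genome, and the 2 lists were nearly of a size. S had 1.11 sites for each site of L (95% interval 1.05 to 1.16, from the counts alone). Intervals given here are at 95% and cover counting error only, but those of a difference between the medians of S and L are wider than that. They treat sites as independent, although neighbouring sites can come from the same molecule. Cut into windows of 100 kb, the genome had a site of S in 2458 windows and a site of L in 2216. In S 59.9% of the sites (58.3 to 61.6) were the only site of S in their window, and in L 60.8% (59.1 to 62.6) were the only one of L. The lists met in 249 windows, which were 10.1% of the S windows and 11.2% of the L windows. The windows of the whole genome were not counted, so these shares cannot be read as high or low. The plus strand held 48.0% of the calls in S and 49.3% in L.

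The ratio of S to L varied little among chromosomes. It was lowest on chromosome 3, with 125 sites in S and 145 in L, a ratio of 0.862 (0.673 to 1.10). It was highest on chromosome 6, with 171 and 121 sites, a ratio of 1.41 (1.11 to 1.80). Chromosome 10 followed with 1.34 (1.05 to 1.72) and chromosome 15 with 1.32 (1.00 to 1.75). Over all sites outside the densest windows the ratio was 1.12, which lay within the interval of every chromosome but 3, where it lay just above. Gene bodies held 45.4% of the S sites (43.7 to 47.1) and 44.8% of the L sites (43.1 to 46.6). Within 1 kb of a gene start lay 75 sites of S, or 2.23%, and 70 of L, or 2.30%. Over all sites the gene shares did not differ beyond counting error. Among sites with coverage of 25 or more, gene bodies held 22.2% of S and 9.77% of L, a difference of 12.4 points (7.76 to 17). Without satellite-like contexts they held 53.9% of 193 sites and 29.7% of 118, a difference of 24.2 points (13 to 34.4). Many of these sites are clustered. Without satellite-like contexts, 47.2% in S and 53.4% in L had a neighbour within 200 bases. Neighbours tend to fall in or out of a gene together, so these intervals are too narrow.

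**Figure D1:**
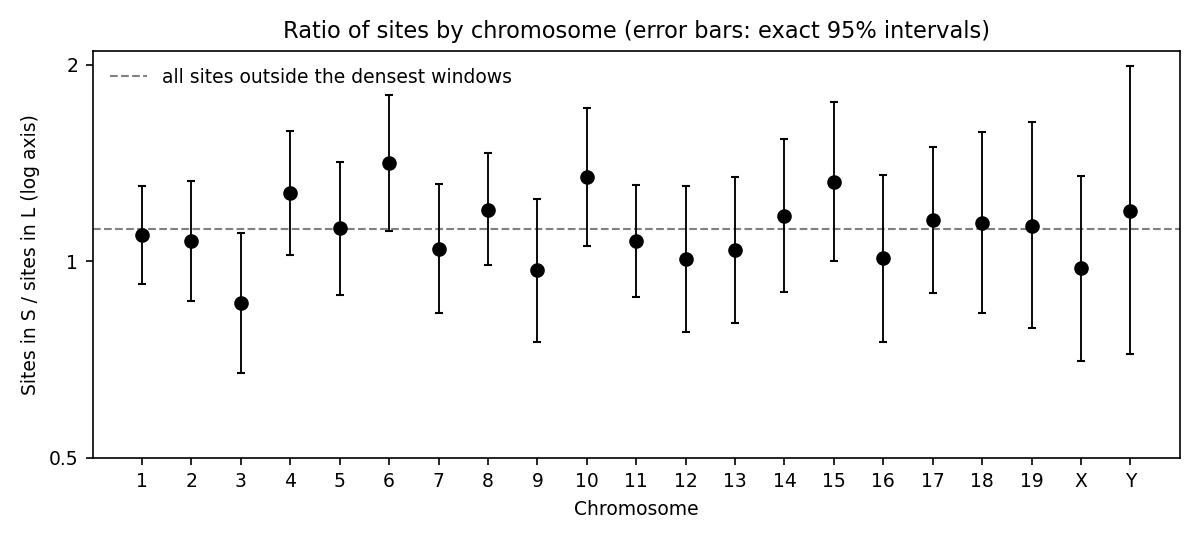
Ratio of the number of S sites to the number of L sites on each chromosome (points, log axis) with exact 95% intervals, outside the densest windows. The dashed line is the ratio over all such sites, 1.12, and the points run from 0.862 on chromosome 3 to 1.41 on chromosome 6.

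A set of 6 windows rich in repeated sequence held 355 sites of S, or 10.5%, and 355 of L, or 11.7%. A window was called dense when it held 10 or more sites in either list. Their contexts repeat a small set of 12-base words, and a context with at least 3 of those words is called satellite-like here. By that rule 10.2% of S (9.21 to 11.3) and 11.1% of L (10.0 to 12.3) were satellite-like. The start of the chromosome 9 assembly, from 3000172 to 3038087, held 120 sites of S and 109 of L. The unplaced contig JH584304 held 108 and 118 between 9638 and 99961, and 41 and 42 between 100311 and 113412. Chromosome 14, from 19415767 to 19419477, held 50 and 49. Chromosome 2, from 98662211 to 98667176, held 26 in S and 35 in L. The contig GL456392 held 10 in S and 2 in L, the most unequal of the 6. It counted as dense through its S sites alone, so this inequality follows in part from the rule for windows. In the other 5 windows the ratio of S to L ran from 0.743 to 1.10, while coverage differed more. At chromosome 14 median coverage was 294.5 in S and 194 in L, and at chromosome 2 it was 662 in S and 939 in L.

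The spacing of neighbouring sites differed between the lists when sites of any score and coverage were counted. Away from the dense windows, a smaller share of S than of L sites had their nearest neighbour at over 200 and up to 1000 bases. In S 31 of 3015 sites, or 1.03% (0.700 to 1.46), had their nearest site of the same list at over 200 and up to 1000 bases. In L it was 75 of 2689, or 2.79% (2.20 to 3.48). At over 300 and up to 1000 bases the counts were 4 in S and 29 in L, or 0.133% (0.0362 to 0.339) and 1.08% (0.723 to 1.55). Beyond 400 bases S had 0 of 3015, which allows a share of up to 0.122%, and L had 15 of 2689, or 0.558% (0.313 to 0.918). The difference was not seen among the stronger calls of the whole lists, dense windows included. Over the whole lists, neighbours at over 200 and up to 1000 bases gave S minus L of -1.44 points (-2.40 to -0.51). Among sites with a score of 30 or more S stood higher, by 1.49 points (-1.27 to 4.20), and with coverage of 25 or more by 1.94 (-2.29 to 6.07). With satellite-like contexts left out too, S minus L was -0.52 points (-1.90 to 0.57) and -0.66 (-5.00 to 2.27). Few sites underlie these last values. The shares were 0.362% of 552 sites in S and 0.879% of 455 in L at the higher score. At the higher coverage they were 1.04% of 193 and 1.69% of 118. Such counts cannot decide whether the difference holds among stronger calls outside satellites.

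Closer neighbours were somewhat more common in S. A neighbour within 200 bases was found for 24% of the S sites (22.5 to 25.5) and 21.3% of the L sites (19.8 to 22.9), a difference of 2.63 points (0.46 to 4.8). Among sites with coverage of 25 or more, dense windows included, L stood higher, at 76.7% against 68.7% in S (-8.03 points, -13.6 to -2.29). Within each step of distance up to 200 bases the intervals overlapped. A neighbour at 1 to 10 bases was found for 5.54% of the S sites (4.75 to 6.42) and 5.32% of the L sites (4.5 to 6.23). At 11 to 50 bases the shares were 7.5% (6.58 to 8.49) and 6.14% (5.26 to 7.11). At 51 to 200 bases they were 10.9% (9.85 to 12.1) and 9.89% (8.79 to 11.1). Counted as pairs of neighbours, S had 30 at over 150 and up to 200 bases, 9 up to 250, 8 up to 300, 2 up to 400 and 0 up to 1000. L had 31, 17, 10 and 8 in the same steps, then 5 up to 500 and 3 up to 1000. At over 1000 and up to 2000 bases the lists had 6 pairs each. Inside the dense windows the longer distances were not rarer in S: 20.3% of the S sites and 17.5% of the L sites there had their nearest neighbour at over 200 and up to 1000 bases.

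**Figure D2:**
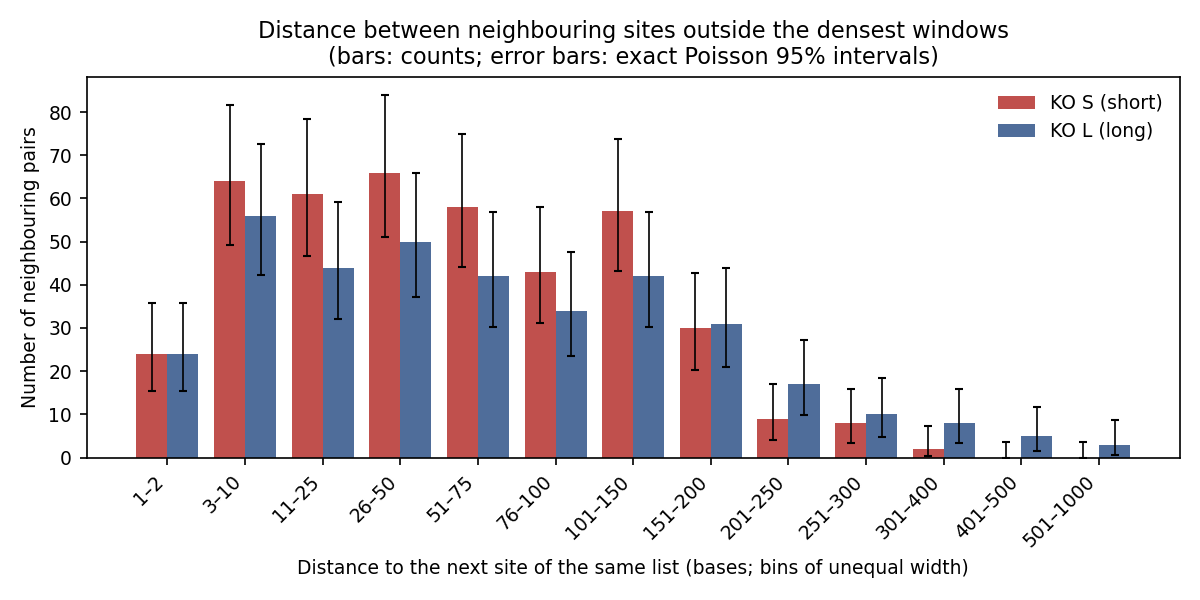
Number of pairs of neighbouring sites in S and L (bars) by the distance to the next site of the same list in bases, outside the dense windows, with exact Poisson 95% intervals. The bins are of unequal width. S has more pairs than L in most bins up to 150 bases, and at over 300 and up to 400 bases S has 2 pairs and L has 8.

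Neighbours within 200 bases had much the same coverage as each other. Of such pairs outside the dense windows, 27.3% of 403 in S and 31.0% of 323 in L had equal coverage. Coverage within 1.2 times of each other was seen in 72.5% of the pairs in S (67.8 to 76.8) and 77.7% in L (72.8 to 82.1). Among neighbours over 5000 and up to 100000 bases apart, the shares within 1.2 times were 19.3% in S and 23.9% in L. Pairs at over 200 and up to 1000 bases were closer to the near pairs, with 12 of 19 in S and 26 of 43 in L within 1.2 times. Neighbours at 1 to 10 bases lay on the same strand in 72.7% of 88 pairs in S (62.2 to 81.7) and 75% of 80 pairs in L (64.1 to 84.0). At 11 to 200 bases the shares were 54.6% and 56.8%. Sites of the other list were rarely so near. Only 14 of 3015 S sites, or 0.464%, had an L site within 200 bases, against the 24% with another S site.

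Sites no more than 100 bases from the next were chained into clusters. Outside the dense windows S had 40 clusters of 3 or more sites, with 141 sites, and L had 29, with 111 sites. These clusters differed in the base that follows the call. It was adenine in 40.4% of the clustered S sites (32.3 to 49.0) and in 64.0% of the clustered L sites (54.3 to 72.9). Among sites with no neighbour within 100 bases it was adenine in 27.2% (25.5 to 29.0) of S and 33.3% (31.3 to 35.3) of L. A run of 4 or more adenines held 15.6% of the clustered S sites (10.0 to 22.7) and 34.2% of the clustered L sites (25.5 to 43.8). Guanine followed 27.0% (19.8 to 35.1) of the clustered S sites and 11.7% (6.39 to 19.2) of the L sites. Median coverage in these clusters was 19 in S and 18 in L, against 10 and 9 for sites alone. The clusters of L thus held more calls in adenine runs, and the Mtcl1 and chr4 sequences above are examples. Single clusters can go the other way. The chr7 cluster of L printed above has no run of 4 or more adenines, and an S cluster on chromosome 10, not printed, has calls in such a run. Sites of a cluster are not independent and L had only 29 clusters, so these intervals are too narrow.

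The bases next to the called adenine differed between the lists, and the largest difference was in the base after it. Adenine followed 29.6% of the calls in S (28.1 to 31.2) and 35.8% in L (34.1 to 37.6), a difference of -6.23 percentage points (-8.52 to -3.93). At a score of 30 or more it was -4.46 points (-9.28 to 0.36). Guanine followed 27.6% in S and 23.6% in L, a difference of 4.04 points (1.90 to 6.17). On the other side, cytosine came before 31.4% of the calls in S and 27.8% in L, a difference of 3.6 points (1.36 to 5.83). Thymine came before 18.9% and 21.1%, a difference of -2.19 points (-4.16 to -0.23).

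These shares were set against the other adenines of the same contexts, the local background. Adenine followed 35.9% of the background adenines in S and 38.1% in L, so that it was rarer after calls than after background in both lists, by -6.24 points in S and -2.22 in L. Guanine followed 23.9% of the background in S and 23.1% in L. Calls exceeded that by 3.72 points in S and 0.41 in L, so the guanine difference between the lists was 3.31 points after the background.

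**Figure D3:**
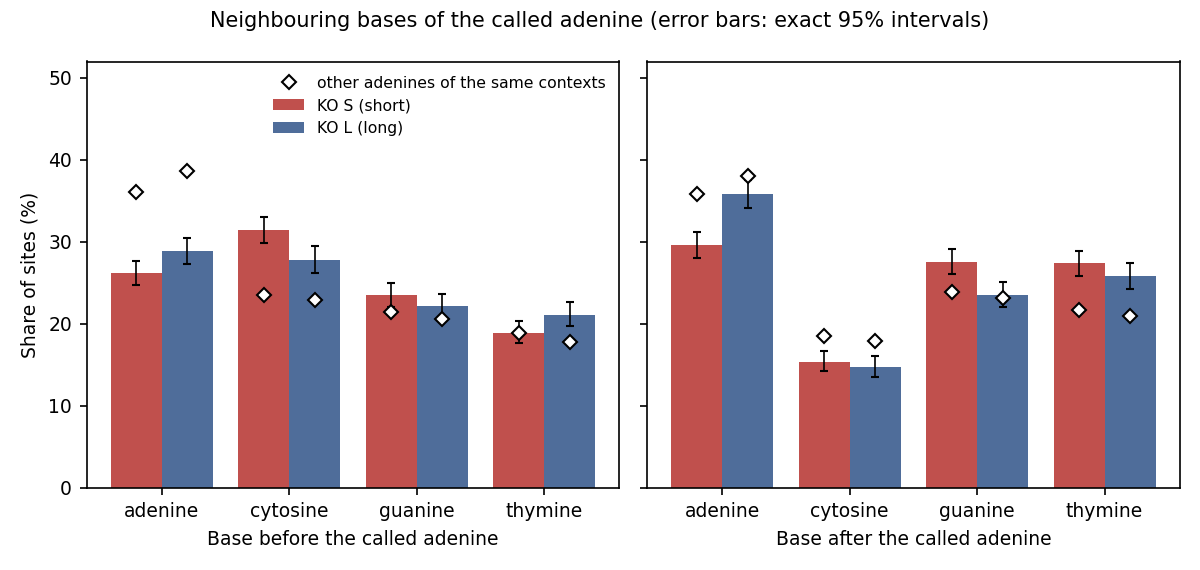
Share of sites in percent with each base before (left) and after (right) the called adenine, for S and L (bars) with exact 95% intervals. Diamonds are the shares at the other adenines of the same contexts. After the call, adenine reaches 29.6% in S and 35.8% in L, and guanine 27.6% and 23.6%.

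By trinucleotide, with the called adenine in the middle, 3 of the 16 contexts (18.8%) had an interval of S minus L above 0 and another 3 (18.8%) had one below 0. CAG made up 9.14% of S (8.19 to 10.2) and 6.96% of L (6.09 to 7.93). Against the local background it was 1.36 times as frequent at calls in S and 1.08 times in L. GAG made up 8.55% and 6.80%, and GAC 4.04% and 2.96%. In the other direction, GAA made up 6.47% of S (5.66 to 7.35) and 8.90% of L (7.91 to 9.97), which was 0.807 times its background in S and 1.10 times in L. TAA made up 5.93% and 7.16%. AAA made up 9.58% and 12.2%, but its background was 16.1% in S and 18.3% in L, so that only -0.32 points of the difference were left after the background. CAT, at 9.41% and 8.38%, stood highest above its background in both lists, at 1.72 and 1.62 times.

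The bias reached further along the context, mostly within 10 bases of the call. Outside satellite-like contexts, 18 of 80 combinations of base and position within 10 bases (22.5%) had an interval of the difference off 0, against 2 of 80 (2.5%) at 11 to 20 bases. The third base after the call was thymine in 35.9% of S and 30.8% of L, a difference of 5.14 points (2.69 to 7.57). Cytosine was more frequent in S at the fourth base after the call, at 25.6% against 21.8%, and at the fifth, at 26.4% against 22.9%. Before the call, adenine at the second base stood at 32.3% in S and 36.0% in L, and guanine at the third base at 24.2% and 21.2%. The mean shares over bases 11 to 20 on both sides differed less, with adenine at 29.2% and 29.9% and cytosine at 21.7% in both.

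Median GC of the 41-base contexts was 42.5% in both lists, and GC was 50% or more in 29.2% of the S contexts (27.7 to 30.8) and 26.5% of the L contexts (25 to 28.2), a difference of 2.65 points (0.46 to 4.84). With only 1 site kept per chain of sites within 100 bases, it was 2.08 points (-0.31 to 4.47). Among sites with coverage of 25 or more that difference was 8.34 points (4.40 to 12.2), and without satellite-like contexts 16 points (5.33 to 25.7), at 38.9% and 22.9%. Outside satellites, 8.06% of S (7.12 to 9.09) and 6.21% of L (5.33 to 7.18) had 2 or more CpG. A run of 4 or more adenines held the call in 9.94% of S (8.95 to 11) and 12.6% of L (11.5 to 13.9).

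The strength of the calls bore on the context. The caller's identification score states how well the pause pattern fits N6mA rather than another modification. At sites outside satellites with an identification score of 20 or more, guanine followed the call in 36.5% of S (31.5 to 41.8; 129 of 353) and 34.6% of L (28.6 to 41; 83 of 240). At lower scores it followed in 26.5% of S (24.9 to 28.2) and 21.8% of L (20.2 to 23.5). CAG made up 16.7% and 14.6% of the well-identified sites, against 8.79% and 6.41% of the others. The step between well and poorly identified sites was thus wider than the step between S and L. Among sites with a modification score of 30 or more, the guanine share was 27.0% in S and 28.3% in L, a difference of -1.30 points (-5.98 to 3.35), so the higher guanine share of S was not seen there. Without satellite-like contexts it was 24.8% and 26.6% at such scores. Among sites with coverage of 25 or more, most of them satellite-like, it was 26.1% and 26.3%, and without satellite-like contexts 25.9% and 21.2%, on 193 and 118 sites.

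Over the whole lists the kinetic readouts were higher in S. Median IPD ratio, the observed pause over the predicted one, was 2.66 in S (2.63 to 2.69) and 2.57 in L (2.54 to 2.61), a difference of 0.09 (0.02 to 0.15). Without satellite-like contexts it was again 0.09 but with an interval that reached 0 (0 to 0.17). An IPD ratio of 4 or more was reached by 16% of S (14.8 to 17.3) and 13.3% of L (12.1 to 14.5). The modified fraction, the caller's estimate of the share of molecules modified at the base, is given at coverage of 11 or more only. Its median was 71.1% in S (68.6 to 73.7; 1919 sites) and 61.3% in L (59.1 to 63.9; 1553 sites). A fraction of 90% or more was given for 31.3% of the sites in S and 23.3% in L. The bounds deposited with each fraction were wide, with a median width of 58.2 points in S and 62.6 in L. Single fractions are therefore uncertain, more so than the medians.

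Coverage also differed, with a median of 12 in S (11 to 12) and 11 in L (10 to 11), and with 56.9% of S (55.3 to 58.6) and 51% of L (49.2 to 52.8) at 11 or more. It moves with the readouts, so S and L were compared at like coverage, outside satellite-like contexts. At coverage of 6 to 10, median IPD ratio was 2.98 in S (2.91 to 3.04) and 2.84 in L (2.77 to 2.89). At 11 to 15 it was 2.79 (2.71 to 2.87) and 2.63 (2.58 to 2.72), and at 16 to 24 it was 2.43 and 2.36, with overlapping intervals. At 25 to 99 it was 2.11 and 2.10. The intervals of S and L were thus apart at coverage of 6 to 10, just touched at 11 to 15 and overlapped widely above.

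The modified fraction stayed apart up to a higher coverage. Its median at coverage of 11 to 15 was 90.2% in S (87.8 to 92.2) and 80.8% in L (77.7 to 84.2). At 16 to 24 it was 69.0% (66.0 to 72.2) and 60.5% (57.2 to 63.4). At 25 to 99 the intervals overlapped, at 48.0% (43.4 to 51.9) and 46.6% (40.5 to 53.2). At 100 or more, on 10 sites of S and 13 of L, it was 21.2% (13.8 to 53.8) and 22.9% (15.5 to 47.4). With satellite-like contexts included, S stood lower at 100 or more, on 160 and 157 sites. The fraction there was 19.8% (17.9 to 22.4) in S and 23.3% (20.7 to 26.1) in L. Median IPD ratio there was 1.635 (1.55 to 1.70) and 1.67 (1.56 to 1.74). In both lists the fraction fell with coverage by more than S and L differed. Every listed base had a score of 20 or more, and bases under it are not seen at any coverage. The medians thus describe called bases only, and whether that threshold shaped the fall with coverage was not tested.

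**Figure D4:**
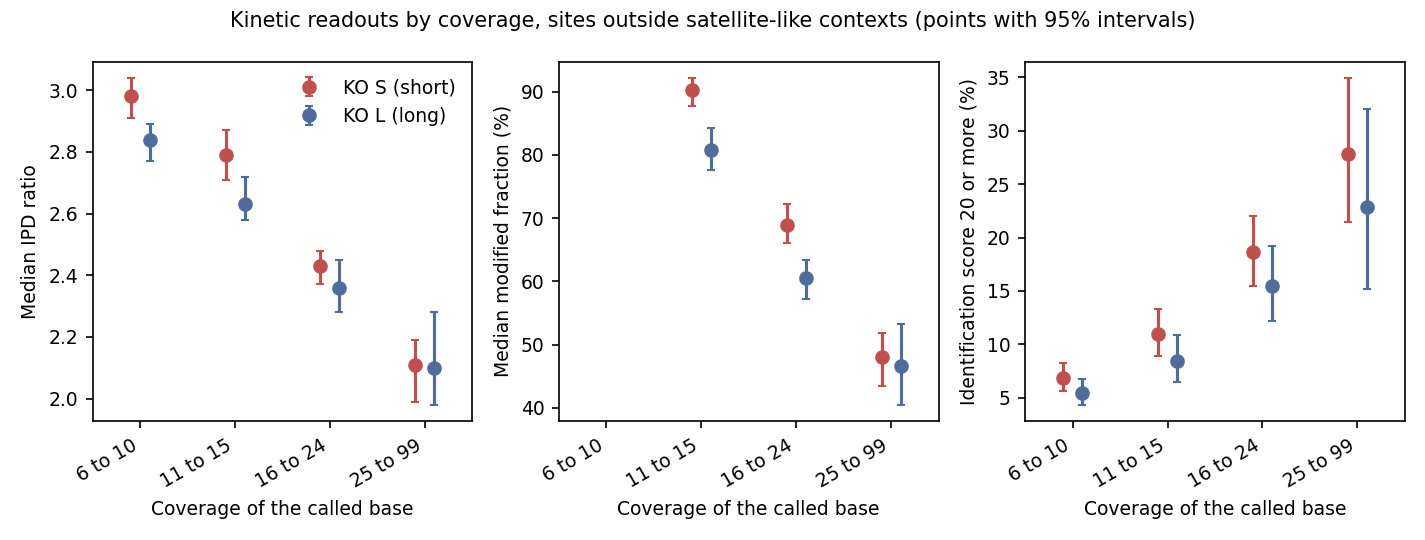
Median IPD ratio (left), median modified fraction in percent (middle) and share of sites with an identification score of 20 or more in percent (right) by coverage of the called base, for S and L outside satellite-like contexts, with 95% intervals. The fraction is not given under coverage of 11. At coverage of 11 to 15 the fraction is 90.2% in S and 80.8% in L, and at 25 to 99 it is 48.0% and 46.6%.

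An identification score of 20 or more was given to 14.5% of S (13.4 to 15.8) and 13.2% of L (12.1 to 14.5). Sites outside and inside satellites went opposite ways. Outside the shares were 11.7% in S (10.5 to 12.9) and 8.87% in L (7.82 to 10.0). In satellite-like contexts they were 39.8% in S (34.6 to 45.2) and 48.2% in L (42.8 to 53.7), with a median coverage of 84 in each. Over all satellite-like sites of each list, median IPD ratio was 1.88 in both (1.82 to 1.95 in S, 1.81 to 1.94 in L), and the modified fraction was 31.3% (28.0 to 34.8) and 29.4% (27.6 to 33.0). At the 110 satellite-like bases called in both lists, however, IPD ratio was higher in S at 71 and lower at 37, with a median difference of 0.08 (0.03 to 0.18), and the fraction differed by 2.4 points (0.5 to 4.7).

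By trinucleotide, outside satellites, the highest median IPD ratios were those of TAG in S, at 3.34 (3.01 to 3.56), and GAG in L, at 3.06 (2.89 to 3.31). GAG stood at 3.01 (2.86 to 3.20) in S and TAG at 2.93 (2.73 to 3.34) in L. CAT had the highest modified fraction in S, at 98.5% (96.0 to 100), and stood at 88.05% (77.1 to 96.5) in L. AAA had a fraction of 57.3% in S and 55.4% in L. TAA stood at 67.3% (56.5 to 78.7) and 53.5% (46.5 to 64.3). AAA, the most frequent context of L, thus had nearly the same fraction in both lists, while the 4 contexts with thymine after the call stood between 88.05% and 98.5% in both.

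The lists shared 120 called bases on the same strand, and all but 7 of them lay in the dense windows. At coverage of 100 or more, 46.3% of the S sites (38.3 to 54.3) and 51% of the L sites (42.9 to 59.0) were called in the other list too, against 0.232% and 0.260% of the sites outside the dense windows. Such bases allow S and L to be compared at the same sequence. IPD ratio was higher in S at 78 of them, equal at 3 and lower at 39, with a median difference of 0.08 (0.03 to 0.17). The modified fraction was higher in S at 76, equal at 1 and lower at 42, with a median difference of 1.9 points (0.3 to 4.5). Coverage in S was 1.04 times that in L (0.958 to 1.10). Across these bases the values of S and L followed each other, with a Spearman correlation of 0.823 for IPD ratio. The bases are not independent, since 110 are satellite-like, and the correlation is a description of the base positions.

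The 7 shared bases outside the dense windows were at 2 places. At chr9, position 35305292, in the long noncoding RNA gene Gm33838, IPD ratio was 2.47 in S at coverage of 986 and 2.29 in L at coverage of 550, and the modified fraction was 66.3% and 61.4%. Another 5 of the 7 lay within 60 bases of it, all satellite-like, at positions 35305236, 35305240, 35305294, 35305297 and 35305328. The seventh, at position 103649294 of chromosome 6 in Chl1, had an IPD ratio of 2.75 in S at coverage of 84 and 2.43 in L at coverage of 115, with fractions of 63.4% and 45.7%. IPD ratio was higher in S at 6 of the 7. The best-scored base of both lists, at position 19417726 of chromosome 14, lay in a dense window. Its modification score was 315 in S and 325 in L, its IPD ratio 3.46 and 3.25, and its modified fraction 85.2% and 85.0%.

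**Figure D5:**
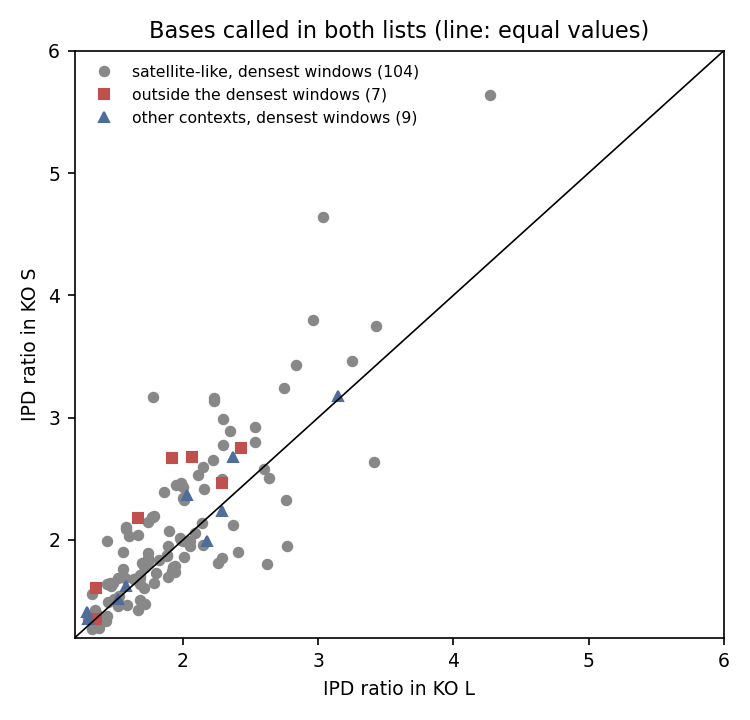
IPD ratio in S against IPD ratio in L for the 120 bases called in both lists, marked by kind of sequence, with the line of equal values. Of the points, 78 lie above the line, 3 on it and 39 below it.

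Some genes held sites of both S and L. Of the 49943 genes in the table, 1259 held a site of S and 1118 a site of L. Sites of both lists were found in 180 genes, which were 14.3% of the first and 16.1% of the second. Both shares were above the share of all genes that held a site of the other list. Genes hit in both lists were long, with a median length of 351 kb against 69.5 kb for genes hit in 1 list. Among the 2197 genes with a site, 50 (2.28%) had 3 or more sites more in S and 46 (2.09%) had 3 or more more in L. In 47 of the 50 and 39 of the 46 the other list had no site. Over all genes, only 14.3% of those with a site of S and 16.1% of those with a site of L held both. Taking genes by their excess also favours those without a site of the other list, so these counts are a description. The sites of the leading list lay within 200 bases of each other in 19 of the 50 and 11 of the 46, so that many of these genes stand for 1 cluster.

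The genes with the largest excess in S were led by Garre1, which encodes an effector of Rac GTPases. It had 6 sites within 138 bases at coverage of 23 to 24, with IPD ratios of 1.76 to 3.46, and none in L. Rasgef1b, a guanine nucleotide exchange factor, had 5 within 92 bases at coverage of 34 to 36. Zfp335, a zinc finger gene, Gm38875, Amotl1, an angiomotin family member, and Crim1, a transmembrane protein that binds bone morphogenetic proteins, each had 4 sites within 69 to 175 bases. Only Nubpl, a mitochondrial complex I assembly factor, and Sh3rf1, a ubiquitin ligase and signalling scaffold, had their 4 sites spread, over 43166 and 210009 bases. In 6 of these 8 genes all S sites thus fitted into 175 bases.

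The genes with the largest excess in L were led by Mtcl1, a microtubule crosslinking factor, with 7 sites and none in S. Of these, 5 lay in the adenine run printed above, and the 7 spanned 77658 bases. Gm30679 had 4 sites within 48 bases and Gm40032 had 4 within 156. Gm16497, Gm31108 and Gm46174 had 4 sites each, over 319, 533 and 628 bases. Kcnc1, a voltage-gated potassium channel, had 4 over 25699 bases, and Syndig1, a synaptic membrane protein, 4 over 100989. Over the whole sets, the sites of the leading list spanned over 200 and up to 1000 bases in 7 of the 50 genes with more sites in S and in 8 of the 46 with more in L. These genes were ranked on the same counts, so the lists of names are a description.

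In 21 genes each list had at least 2 sites outside the dense windows. Gm33838, with 9 sites in S and 7 in L, was satellite-like at 8 and 7 of them. Dlgap2, a postsynaptic scaffold gene of 758 kb, had 5 in S and 7 in L, at coverage of 7 to 18 and 9 to 24. Cacna1a, a neuronal calcium channel gene, had 5 and 3, and Nrg1, the gene of the growth factor neuregulin, had 6 and 2. Ank3, Tenm2, Wwox and Lingo2 are among the others, at 2 to 4 sites in each list. All but Gm33838 were 222 kb or longer. Apart from Gm33838 and the 1 shared base in Chl1, no base of the 21 genes was called in both lists.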

How the data were processed

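Per the labels, 4 samples entered here, 2 replicates each of the S and L parts of DNA from Alkbh1 KO cells after H2A.X native ChIP and SMRT sequencing, out of 8 samples in 4 groups. Positions are on mm10, the build in the submitters' processing notes. How replicates were joined, and which caller, aligner and filters were used, is not given in the sources used here. A deposited line is a called adenine with a score, 20 or more throughout. Its scale is not stated and was read as the caller's modification score. The authors deposited other values in the last column of each line: coverage (a signal without normalization), a linear IPD ratio, the 41-base context, an identification score, and, at coverage of 11 or more, a modified fraction with bounds (given here as a percent). Values were used as deposited, with no filter.

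Counting used Python 3.11.15, numpy 2.4.6, pandas 2.3.3, scipy 1.17.1 and statsmodels 0.14.6. Figures used matplotlib 3.10.9. Shares have exact Clopper-Pearson intervals, medians exact order-statistic intervals, counts exact Poisson intervals, ratios of counts exact binomial intervals and differences of shares Newcombe intervals, all at 95%. The interval of a difference between the medians of S and L joins opposite ends of the interval of each list. It is therefore wider than a 95% interval. Depth enters as the coverage of each called base, from 6 to 6602 in S and from 6 to 5513 in L. Nearest neighbours were taken within a list on either strand. In the 481 neighbouring contexts that overlap, all 14565 shared bases were equal, a check of position and strand. A context was satellite-like with 3 or more of 286 recurring words of 12 bases. These were words found in at least 10 contexts and at least 3 dense windows, without repeats of period 6 or less. Genes came from a RefSeq table of assembly GRCm38.p6, whose chromosome coordinates are those of mm10, from gene start to end without exons. Gene starts came from RefSeq promoters of the same source.

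Named were the 8 genes with the largest excess in S and the 8 in L, among genes with 3 or more sites, with ties broken by density per kb, then alphabetically. Named too were genes with 2 or more sites in each list outside satellite windows, the densest windows, the tightest clusters, the best-scored sites and the bases shared outside dense windows. The members and lists were chosen with earlier results of these data known. The counting steps were tested on simulated data with known answers. Alternatives were the score, the coverage, satellite-like contexts, dense windows, 1 site per chain and coverage weighting.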

Additional observations from a re-analysis of the deposited data

How the results depend on the processing

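No paired analysis was possible because each list joins both replicates and its columns carry no replicate number, and leaving out a replicate was not possible for the same reason. Of 136 alternatives to the values reported, 108 kept the direction of the main value, 20 had the opposite one, and in 8 a value was at 0. Among the 136 are 3 for the share of S sites called in both lists, which is not a difference and could only keep its sign. Of the 20, 8 turned a difference whose interval had lain off 0. The IPD ratio was higher in S in all 8 of its alternatives, by 0.03 to 0.12, but of the 7 with an interval only 1 excluded 0.

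With a modification score of 30 or more, S minus L was -1.30 points for the share with guanine after the call, 1.49 for neighbours at over 200 and up to 1000 bases, -2.80 for identification scores of 20 or more, -3.47 for satellite-like contexts and 17 for the median modified fraction, and 10.9% of S was shared. With satellite-like contexts left out as well, an alternative chosen after seeing the data as were all such pairs, guanine stood at -1.77, GAG at -1.33, gene bodies at -3.98 and the ratio of S to L at 1.21. With coverage of 25 or more the values were -0.14 for guanine, 1.94 for the spacing, 2.50 for median GC, 12.4 (7.76 to 17) for gene bodies, -7.53 for identification, 4.5 for the fraction and -10.8 for satellite-like contexts, and the ratio was 1.17. Without satellite-like contexts at that coverage they were 0.48 for AAA, -3.29 for GAG, 5.00 for GC, 24.2 (13 to 34.4) for gene bodies, -0.46 for identification and 1.85 for the fraction, with a ratio of 1.64. Shared bases were 4.87% of S within 10 bases and 0.232% without the dense windows. The cause was not tested. In the first 2 settings named without the satellite condition, satellite-like contexts made up 27.3% and 61.8% of S. Depth limits single calls: 43.1% of S and 49.0% of L had coverage of 6 to 10.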
